A study of Mus musculus with 36 samples.

Results

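Tac4 is the gene of hemokinin, a member of the tachykinin family, and it was read as 1 gene of the 12762 in the table of mouse B3 cells. It was selected on these data, by the size of its difference between Ikaros and control cells at 24 h. Its row was found by its gene symbol, and the rule returned 1 row, the Ensembl gene ENSMUSG00000020872. Because the 24 h libraries chose it, the 24 h values stand here as a description with no test. The libraries at 0, 2, 6, 12 and 18 h did not enter the 24 h difference and were tested. Their tests are not wholly independent of the choice. The spread was estimated over all 12 groups, those of 24 h included, and the cultures of 2 to 18 h came from the same batches as those of 24 h. Earlier results of these data were known when Tac4 was chosen.

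Tachykinins are short secreted peptides that are cut from longer precursor proteins by proteases at basic residues, and that end in a conserved stretch with an amidated methionine at its end. They act on G protein-coupled receptors, which pass the signal through Gq proteins, phospholipase C and calcium. Substance P and neurokinin A come from Tac1 and neurokinin B from Tac2, both mainly in neurons, whereas Tac4 was described in hematopoietic cells, where hemokinin is known as a factor that promotes the survival and growth of B cell precursors.

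The cells were cultures of the mouse line B3, derived from pre-B cells, in which Ikaros, a zinc finger protein encoded by Ikzf1 that drives the exit of pre-B cells from the cycle, can be switched on. Cells were transduced with a retroviral vector, and sorted on the GFP marker of that vector, that carried either an HA-tagged Ikaros joined to the hormone-binding part of a mutant estrogen receptor (Ikaros-ERt2, called Ikaros cells here) or the receptor part alone (control cells). The drug 4-hydroxytamoxifen (4-OHT) moves the fusion protein to the nucleus. The labels list 0.5 uM 4-OHT for all 36 libraries, those of 0 h included, while the methods describe the 0 h cells as collected apart and without the drug. RNA was sequenced at 0, 2, 6, 12, 18 and 24 h in 3 libraries for each cell line and time, from culture batches 1, 2 and 4 at 0 h and 1, 3 and 4 at the other times. All batches are cultures of 1 cell line, so the error covers the spread between cultures and not between animals, and both lines carry their own endogenous Ikaros.

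Values are expression after the correction that the study made for GC content and gene length, taken as log2 (the scale that the correction returns, though the table does not name its base, on which the fold values depend), on a scale with no reads behind it, and the depth of each library is therefore unknown. The median gene lay between 11.70 and 11.73 in every library. Ikzf1, which counts the transgene together with the endogenous gene, lay between 13.95 and 14.85 in the 18 control libraries and between 19.63 and 20.93 in the 18 Ikaros libraries, at 0 h too. All 12 pre-B markers looked for were read, with library means of 13.08 to 13.56 in control cells and 13.17 to 14.64 in Ikaros cells. Of the other cell types, 2 of 7 T cell markers were read (Lat at a mean of 9.42 and Zap70 at 11.48), 2 of 8 myeloid markers (Lyz2 at 6.66 and Itgam at 6.30) and 4 of 7 erythroid markers, and the defining T cell genes Cd3d, Cd3e, Cd3g, Cd4 and Cd8a were not analysed here. The library means of the T cell markers were 10.21 to 11.10 in control cells and 8.80 to 11.30 in Ikaros cells, those of the myeloid markers 4.83 to 6.79 and 6.14 to 7.91, and those of the erythroid markers 7.85 to 8.72 and 6.74 to 9.02. Single markers moved within these means. Between 0 and 24 h the Ikaros minus control difference of Lyz2 went from 2.94 to -2.94, that of Itgam from -0.78 to 4.24, that of Lat from 0.66 to -2.34, and that of the globin gene Hbb-b2, which has a close copy in Hbb-b1 and a mean of 12.43, from -3.43 to 1.82. The part of such cells in the change of Tac4 was not tested.

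In the mouse genome build GRCm38 (mm10), Tac4 lies on the plus strand of chromosome 11, from 95261529 to 95269265, a span of 7737 bases with 4 exons of 291, 94, 60 and 806 bases. The coding sequence begins in exon 1 after 171 bases of 5′ UTR and ends in exon 4. The 696 bases after it are annotated as 3′ UTR and include the stop codon. The span of Tac4 is overlapped by 0 other annotated genes. The stretch of coding sequence that makes Tac4 a tachykinin is shown here beside the same stretch of Tac1 and Tac2. In each, 6 codons are followed in capitals by the 5 codons of the family's shared end, Phe-X-Gly-Leu-Met, in which X is any residue.

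Tac4, exon 2, chr11:95265260-95265292: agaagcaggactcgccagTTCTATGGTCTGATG
Tac1 (the substance P stretch), exon 3, chr6:7556732-7556764: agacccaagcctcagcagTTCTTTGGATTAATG
Tac1 (the neurokinin A stretch), exons 4 and 5, chr6:7557743-7559130: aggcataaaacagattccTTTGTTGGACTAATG
Tac2 (the neurokinin B stretch), exons 4 and 5, chr10:127728476-127729145: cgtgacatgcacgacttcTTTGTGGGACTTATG

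In Tac4 these codons are residues 62 to 66 of a precursor of 128 residues, and they lie in exon 2. The Tac1 and Tac2 stretches given over exons 4 and 5 cross an intron, which is left out. Tac4 was the 1 gene read here of 6 tachykinin ligands and receptors looked for, and Tac1, Tac2, Tacr1, Tacr2 and Tacr3 were not analysed here.

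The 250 bases before the annotated start of Tac4, from RefSeq on GRCm38.p6, are shown because the cells differ in Ikaros, whose zinc fingers recognise sites with the core GGGAA. Capitals mark each GGGAA on either strand, so that TTCCC is the core read on the minus strand.

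Tac4 promoter, chr11:95261279-95261528, plus strand: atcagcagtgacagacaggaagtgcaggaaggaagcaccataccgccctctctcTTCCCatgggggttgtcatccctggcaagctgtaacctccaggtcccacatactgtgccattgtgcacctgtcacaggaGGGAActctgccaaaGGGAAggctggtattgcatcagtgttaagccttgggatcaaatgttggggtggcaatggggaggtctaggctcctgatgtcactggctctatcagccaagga

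The window held 3 such cores, 196 bases before the start on the minus strand and 117 and 102 bases before it on the plus strand, and its GC content was 54.4%. Of 32851 RefSeq mouse promoters of the same length, 56.2% held at least 1 core and 5.88% held at least 3. The longer form TGGGAA, which overlaps the core, was found 1 time in the Tac4 window and in 21.6% of the promoters. These are matches of letters, and no binding was measured here.

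In control cells Tac4 was among the more highly expressed genes at all 6 times. In the order of their batches, the 3 control libraries of 0 h held 14.18, 14.47 and 14.14, those of 2 h 14.13, 14.54 and 14.43, and those of 6 h 14.74, 14.64 and 14.48. The libraries of 12 h held 14.38, 14.59 and 14.57, those of 18 h 14.57, 14.74 and 14.78, and those of 24 h 14.62, 14.93 and 15.00. The 18 control libraries thus spanned less than 1 log2 unit, with group means from 14.26 ± 0.18 (SD, n = 3) at 0 h to 14.85 ± 0.20 at 24 h.

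Ikaros cells began at the level of control cells and had less Tac4 from 6 h on. Their 0 h libraries held 14.10, 14.25 and 14.16 and their 2 h libraries 14.29, 14.35 and 14.19, inside or near the range of the control libraries. The 6 h libraries held 12.19, 12.85 and 12.32, those of 12 h 9.89, 10.49 and 9.78, and those of 18 h 8.64, 9.55 and 9.04. The last libraries, of 24 h, held 8.55, 9.67 and 8.51. From 6 h on, the highest Ikaros library lay below the lowest control library of the same time.

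**Figure D1:**
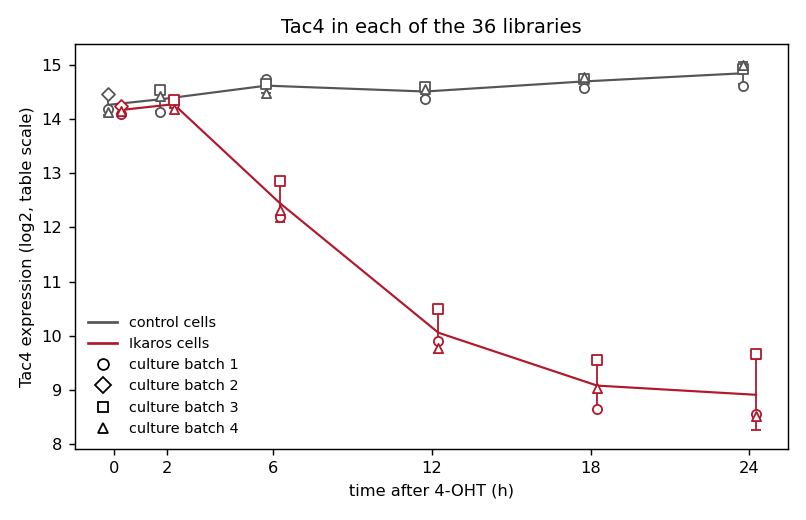
Tac4 expression (log2, on the scale of the table) against time after 4-OHT (h) in each of the 36 libraries, grey for control and red for Ikaros cells, with the symbol giving the culture batch, the line the mean and the bar the SD (n = 3). The lines lie together at 0 and 2 h, and by 24 h the Ikaros mean is 8.91 and the control mean 14.85.

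Group means put the same course in one order. The highest mean was that of control cells at 24 h, followed by control cells at 18, 6, 12 and 2 h, Ikaros cells at 2 h, control cells at 0 h and Ikaros cells at 0 h. Each of these neighbours overlapped in its libraries and differed by less than the larger of their SDs. Ikaros cells at 6 h (12.45 ± 0.35), 12 h (10.06 ± 0.38) and 18 h (9.08 ± 0.46) followed, each without overlap with the group above it. Ikaros cells at 24 h (8.91 ± 0.66) came last and overlapped with those at 18 h, 0.17 below them.

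Within the libraries, Tac4 passed from the upper to the lower part of the expressed genes. In control cells its mean stood at or above 88.2% of the 12762 genes at 0 h and 92.8% at 24 h. In Ikaros cells the share began with 87.4% and 88.3% (0 and 2 h), passed through 62.6% (6 h) and 29.4% (12 h) and ended with 21.5% and 20.4% (18 and 24 h). The 3 Ikaros libraries of 24 h lay between 17.68% and 25.54%. Because the values are corrected for gene length, ranks between genes of one library can be compared on this scale.

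**Figure D2:**
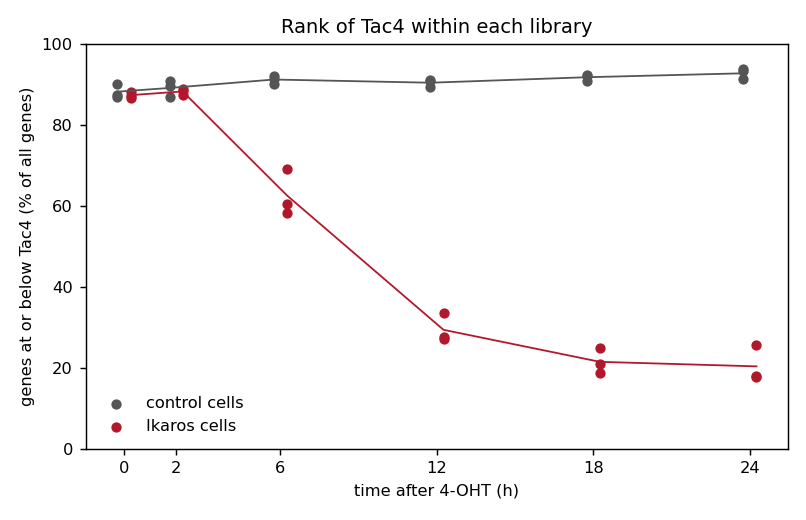
Share of the 12762 genes that lay at or below Tac4 in each library (%), against time after 4-OHT (h), with points for libraries and lines through the group means. Control libraries stay near the top at all times, and Ikaros libraries pass from 87.4% at 0 h to 20.4% at 24 h.

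Differences between Ikaros and control cells were tested with limma on all 12762 genes, with p-values adjusted over all genes by the method of Benjamini and Hochberg and a call at an adjusted p below 0.05. At 0 h the difference was -0.09 (SE 0.24, 95% confidence interval -0.59 to 0.40, limma adjusted p = 0.902), where 8.33% of all genes were called. At 2 h it was -0.09 (-0.58 to 0.40, limma adjusted p = 0.846), where 19.1% of genes were called. Both intervals reach from below to above 0, so no difference of Tac4 was detectable at these times.

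At 6 h Tac4 was lower in Ikaros cells, with a log2 difference of -2.17, which is 4.49-fold (-2.66 to -1.67, limma adjusted p = 7.57e-08). At this time 37.3% of all genes were called, and Tac4 had the 183rd largest fall. At 12 h the difference was -4.46 (21.9-fold, -4.95 to -3.96, limma adjusted p = 4.79e-14), with 45.8% of genes called and Tac4 at place 11 among the falls. At 18 h it was -5.62 (49.1-fold, -6.11 to -5.13, limma adjusted p = 2.41e-16), with 58.2% of genes called and Tac4 at place 5. Many genes were called at these times, and the median of all genes stood between -0.02 and -0.01. Tac4 was chosen for the size of its 24 h difference, so its ranks at these earlier times are not independent of that choice.

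At 24 h, the time that chose the gene, the difference was -5.94, or 61.4-fold, with 62.9% of all genes called. In order of fall Tac4 stood at place 3 at this time, after Ccr2 (-7.69) and Tuba8 (-6.18) and just before Clec4d (-5.87) and Lcp2 (-5.70). Those 4 genes all had a mean below that of the median gene (9.67, 10.16, 8.36 and 6.73), while the mean of Tac4 was 13.02. Measured against this last difference, the earlier ones came to 1.58% (0 h), 1.53% (2 h), 36.5% (6 h), 75.0% (12 h) and 94.6% (18 h) of it.

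Within a batch the Ikaros and the control culture were compared directly, over all 6 times in batches 1 and 4, at 0 h alone in batch 2 and from 2 h on in batch 3. The differences in batches 1, 2 and 4 at 0 h were -0.08, -0.22 and 0.02, and those in batches 1, 3 and 4 at 2 h were 0.15, -0.19 and -0.23. The batches gave -2.54, -1.79 and -2.16 after 6 h, -4.48, -4.10 and -4.79 after 12 h, and -5.93, -5.19 and -5.73 after 18 h. The differences of 24 h were -6.07, -5.26 and -6.49. Signs were mixed at 0 and 2 h, and from 6 h on Tac4 was lower in Ikaros cells in 3 of 3 batches, least so in batch 3.

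Batch 3 gave the highest of the 3 Ikaros values from 2 to 24 h. Among the other genes called lower at the same time, batch 3 was highest in 30.2% (6 h), 35.1% (12 h), 40.6% (18 h) and 47.6% (24 h), so that from 12 h on it was the highest more often than either other batch. Without the replicate that holds this batch the Tac4 differences were -2.35 (6 h), -4.63 (12 h), -5.83 (18 h) and -6.28 (24 h). The SD of Tac4 in Ikaros cells at 24 h was 0.66, against a median SD of 0.28 over the 792 genes within 0.5 of its level, 10.6% of which had a larger SD. At 2 h, when Tac4 was high in the same cells, its SD was 0.08, against 0.16 over 1187 genes at its level.

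Whether the time course itself differed between the lines was asked by comparing each Ikaros minus control difference with that of 0 h. From 0 to 2 h the difference changed by 0.003 (SE 0.34, -0.69 to 0.70, limma adjusted p = 0.998), where 3.1% of genes were called. From 0 to 6 h it changed by -2.07 (limma adjusted p = 8.26e-05, 15.9% of genes called), to 12 h by -4.36 (limma adjusted p = 2.25e-10, 29.7% of genes called) and to 18 h by -5.52 (limma adjusted p = 1.73e-12, 43% of genes called). The change to 24 h was -5.84 and is given without a test.

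Step by step within Ikaros cells, Tac4 moved by 0.11 from 0 to 2 h (-0.38 to 0.60, limma adjusted p = 0.781), where 19.2% of genes were called. It fell by 1.82 from 2 to 6 h (limma adjusted p = 1.38e-05, 11.2% of genes called), and by 2.40 from 6 to 12 h (limma adjusted p = 1.11e-07, 20.8% of genes called). From 12 to 18 h it fell by 0.98 (limma adjusted p = 0.00361, 25.5% of genes called), a call that was lost without replicate 1 (-0.84, limma adjusted p = 0.0878). With only the compared groups in the fit, the limma adjusted p was 0.0554 for the step from 2 to 6 h and 0.0743 for that from 12 to 18 h, so these calls rest on the spread estimated over all 12 groups. From 18 to 24 h the difference was -0.17 (-0.66 to 0.32), given without a test. Per hour the steps were 0.054, -0.456, -0.400, -0.163 and -0.028 log2 units, so that the drop per hour was greatest between 2 and 12 h and had become small by the last step.

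Control cells passed through the same drug and handling. Against their own 0 h, Tac4 differed in them after 2 h by 0.10 (limma adjusted p = 0.911), after 6 h by 0.36 (limma adjusted p = 0.33), after 12 h by 0.25 (limma adjusted p = 0.996) and after 18 h by 0.43 (-0.06 to 0.93, limma adjusted p = 0.394). The shares of all genes called in these 4 comparisons were 0.047%, 5.1%, 0.0549% and 0.478%. At 24 h the difference was 0.58 (0.09 to 1.08), given without a test. None of the tested differences in control cells was called, and each of the values lay above 0. All of them subtract the same 3 control libraries of 0 h, which hold batch 2 in place of batch 3, so their shared sign is not independent.

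The calls before 24 h place Tac4 in a group with many members. At 6, 12 and 18 h alike, 1370 genes were called lower in Ikaros cells, and 752 of them, 5.89% of all genes, were called at neither 0 nor 2 h. Tac4 was 1 of the 752, whose median difference at 18 h was -1.23. Within that group its fall was the 22nd largest at 6 h, and at 12 and 18 h it was second. These places are not independent of the choice of Tac4 by its difference at 24 h.

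Genes for the maturation and breakdown of such peptides went in both directions. Of 14 enzymes that cut, trim or amidate propeptides, 7 were read. At 2 h 1 of them was called higher and 0 lower, against 9.18% and 9.88% of all genes, and at 24 h 3 were called higher and 2 lower, against 31% and 31.9% of all genes. Furin, a convertase that cuts at basic residues, was higher from the start, with differences of 0.60 (0 h), 0.82 (2 h) and 1.27 (24 h). Cpm, a membrane carboxypeptidase that trims basic residues, was also higher at 0 h (0.86) and rose most, to a difference of 5.20 at 24 h. Lower at that time were Pam, which makes the amide at the end of such peptides (-0.54), and Pcsk4, another convertase (-2.89). Pcsk7, a further convertase, was higher (0.66), and Mbtps1 and Cpd were not called. The median of the 7 was 0.15 at 24 h, against -0.01 for all genes.

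Of 9 peptidases that cut tachykinins or related peptides, 6 were read, of which 2 were called higher and 1 lower at 2 h (9.18% and 9.88% of all genes) and 3 higher and 3 lower at 24 h (31% and 31.9% of all genes). Those higher at 24 h were the endothelin-converting enzyme Ece1 (difference 1.50), the oligopeptidase neurolysin, Nln (0.67, after 0.41 at 0 h), and Dpp4 (0.44). Dpp4 removes dipeptides from the amino end. Those lower at 24 h were Ece2 (-2.35), thimet oligopeptidase, Thop1 (-1.70), and prolyl oligopeptidase, Prep (-1.31). Dpp4 went the other way at 2 h (-0.65), a call that was lost without replicate 2 at a difference of like size (-0.69, limma adjusted p = 0.0718), and 0 of the 6 were called at 2 h then. How many of all genes were called without that replicate is not given here. The median of the 6 was -0.43 at 24 h.

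Of 22 genes of the Gq pathway that tachykinin receptors feed, 18 were read, with 3 called higher and 5 lower at 2 h and 6 and 6 at 24 h, where 19.1% and 62.9% of all genes were called in either direction. The 12 called at 24 h are a share near that of all genes. Without replicate 1, or without replicate 2, 3 of the 18 were called at 2 h in place of 8. For the fits without a replicate, the share of all genes called is not given here. Plcb2, a phospholipase C of blood cells, was higher at 0 h (difference 1.57) and not called at 2 h (0.49) or 6 h (0.17). At 24 h it was higher (2.40), and Rgs2, which switches off Gq, was higher too (1.86). The calcium channels Itpr1 and Itpr2 were then higher by 1.02 and 1.07. Prkcb, a protein kinase C of B cells, was lower to a like extent at the start and the end (-4.87 at 0 h, -4.35 at 24 h). Its means in Ikaros cells were low, 3.06 at 0 h and 4.10 at 24 h, so the size of its difference is uncertain. Gna15, a Gq-class protein of blood cells, was lower from 2 h on (-1.24, and -1.22 at 24 h). The median of the 18 was 0.02 at 2 h and -0.07 at 24 h, near the medians of all genes (-0.002 and -0.01).

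Genes of the pre-B stage give the setting of the Tac4 fall. Of 18 looked for, 16 were read, with 1 called higher and 8 lower at 2 h (9.18% and 9.88% of all genes), and 9 higher and 5 lower at 24 h (31% and 31.9% of all genes). The surrogate light chain genes, which make the pre-B receptor, were lower early. For Igll1 the differences of 2, 6 and 24 h were -1.38, -3.80 and -3.96, and for Vpreb1 -0.82, -2.48 and -3.42. Vpreb2, at -1.58 after 2 h, was lower at 0 h already (-1.28). Vpreb1 and Vpreb2 are near-identical copies, and since only uniquely mapped reads were kept, the split of reads between them is uncertain. The 2 h call of Igll1 held with each replicate left out (limma adjusted p of 0.000187 to 0.0209), whereas that of Vpreb1 was lost without replicate 1 (-0.46, limma adjusted p = 0.472) and without replicate 2 (-1.05, limma adjusted p = 0.06), where the difference itself was no smaller. Of all 16 genes, 9 were called at 2 h, and 5 without replicate 1, 3 without replicate 2 and 6 without replicate 3. What share of all genes was called in these smaller fits is not given here, so the drop cannot be read as particular to these genes. Tac4, beside these, stood at -0.09 after 2 h and -2.17 after 6 h, and was level with Igll1 by 12 h (-4.46 against -4.43). By 18 h it stood at -5.62, and Igll1, Vpreb1 and Vpreb2 at -3.88, -2.88 and -3.13. The difference in timing between Tac4 and these genes was not tested.

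Other pre-B genes rose late. Rag1 and Rag2, the recombinase that rearranges antibody genes, were higher at 24 h by 5.19 and 2.08, Blnk, the adaptor below the pre-B receptor, by 4.14, and Il7r, the receptor of interleukin-7, by 2.15. At 6 h, when Tac4 was already lower, Rag1 stood at -0.55 (limma adjusted p = 0.145) and Blnk was lower (-0.48), and both were called higher from 12 h on. Il2ra, a receptor chain of interleukin-2, changed direction, from -2.40 at 0 h to 2.43 at 24 h.

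**Figure D3:**
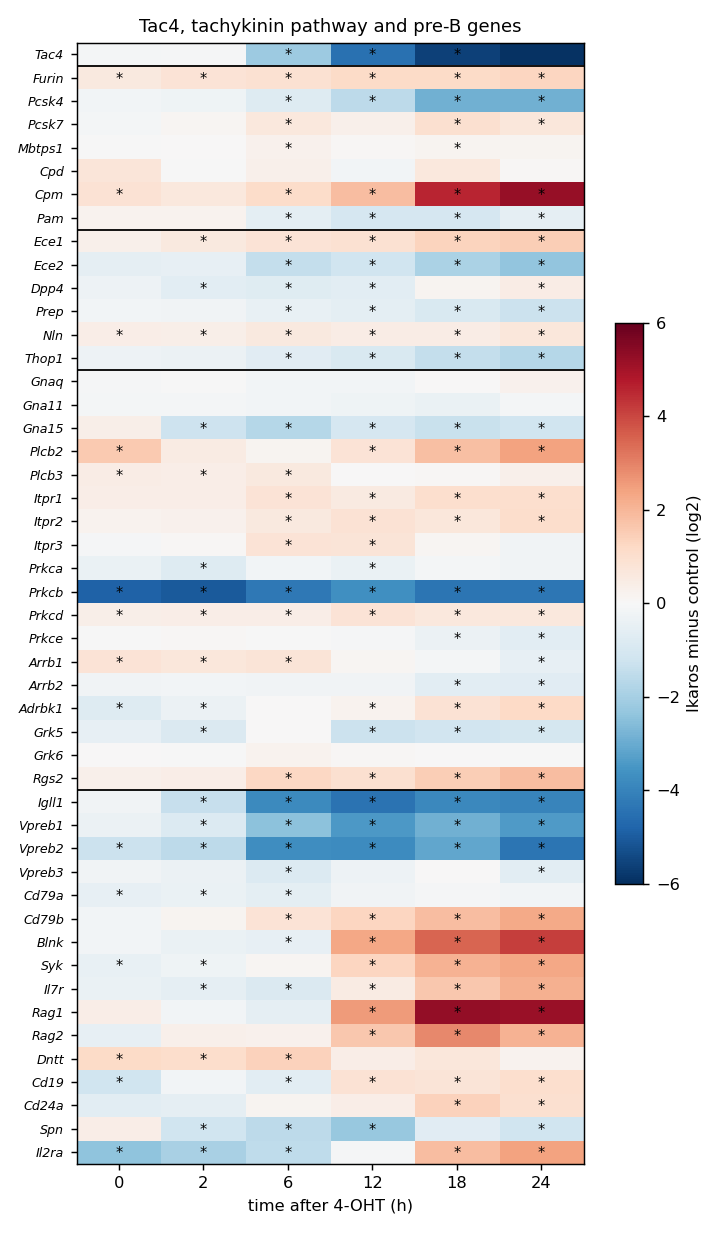
Ikaros minus control difference (log2, colour) at each time after 4-OHT (h) for Tac4 and for the genes read of the propeptide enzymes, tachykinin peptidases, Gq pathway and pre-B stage, separated by black lines. A star marks a limma adjusted p below 0.05, left out for Tac4 at 24 h, where the row of Tac4 stands at -5.94.

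The genes with the course most like that of Tac4 were sought among 7561 genes whose 12 group means spanned at least 1 log2 unit, by Pearson's r over the 12 group means. The measure uses the 24 h values, so the likeness is a description. The 10 highest were D19Bwg1357e (r = 0.993), Grwd1, which takes part in ribosome assembly (0.993), Ccdc86 (0.992), Jak3, the kinase of interleukin-7 and related receptors (0.991), Bcap29 of the endoplasmic reticulum (0.991), the RNA-binding Ybx3 (0.991), the lipoprotein receptor Lrp8 (0.991), Timm9 of mitochondrial protein import (0.990), the retinol saturase Retsat (0.990) and Prkab2, a subunit of the energy-sensing kinase AMPK (0.990). High values were common, since 475 genes (6.28%) reached an r of 0.95 and 393 genes (5.2%) reached -0.95 or lower.

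The likeness was of shape and not of size. Between Ikaros and control cells the 10 genes differed by -0.33 to 0.03 after 2 h and by -1.13 to -0.33 after 6 h. By 18 h they had reached -3.17 (Lrp8) to -0.92 (Prkab2), and Tac4 -5.62. Jak3, for instance, went from a mean of 13.64 in Ikaros cells at 0 h to 12.70 at 24 h, and Lrp8 from 10.89 to 7.92. The 5 genes most unlike Tac4 were Ube2b, a ubiquitin-conjugating enzyme (r = -0.995), Lrrc61 (-0.994), Vamp1, a vesicle fusion protein (-0.993), Acox3, a peroxisomal oxidase (-0.993), and Cerk, the ceramide kinase (-0.992). Cerk had the widest difference of these 5, 1.65 at 6 h and 4.92 at 18 h.

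The names depend on the measure. Of the 10 like genes, 4 stayed among the first 10 when r was taken over the 36 libraries, 4 over the 6 Ikaros group means, and 0 with Spearman's rho over the 12 group means, in which the small differences among the 8 high groups weigh as much as the fall.

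**Figure D4:**
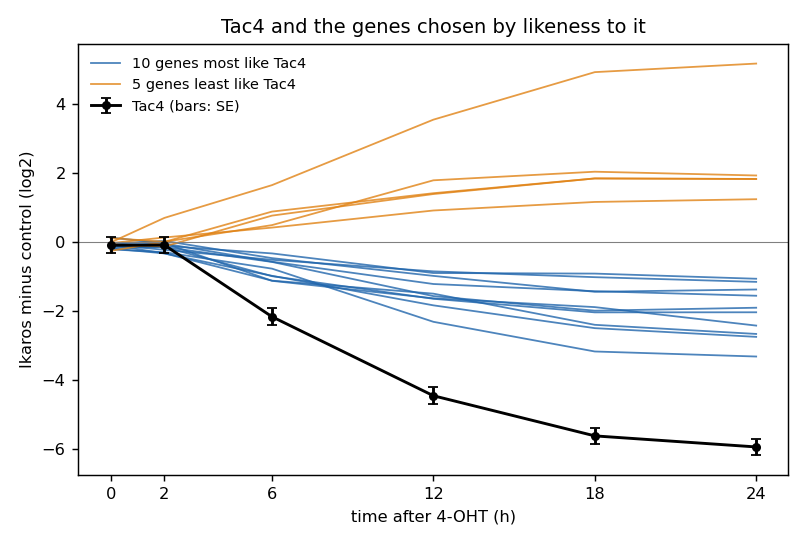
Ikaros minus control difference (log2) against time after 4-OHT (h) for Tac4 (black, bars are SE), the 10 genes most like it (blue) and the 5 least like it (orange), chosen by Pearson's r over 12 group means. Tac4 leaves 0 after 2 h together with the blue lines and reaches -5.94 at 24 h, where the blue lines end between -3.32 and -1.07.

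Genes near Tac4 on chromosome 11 were compared to see whether the region moved together. Of 39 genes annotated within 500 kb on either side, 12 were read, and at 18 h 4 of them were called higher and 4 lower, with a median of 0.09. That is a share near the 58.2% of all genes called at this time. Kat7, a histone acetyltransferase whose gene lies 4.99 kb after Tac4, differed by 0.05 at 18 h (limma adjusted p = 0.846) and by -0.10 at 24 h (limma adjusted p = 0.685). Gm11515, 35.9 kb before Tac4, was the nearest read on that side and was lower too (-2.32 at 18 h), with a mean of 8.19. Gm11520, 41.2 kb after it, was higher (1.71 at 18 h), with a mean of 7.91.

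Fam117a, 67.8 kb after Tac4 and with a mean of 7.77, went against it. Its difference was 2.36 at 2 h and grew to 4.60 by 18 h and 5.02 by 24 h. It was the 1 gene called of the 12 at 2 h, when 19.1% of all genes were called. Phb, the mitochondrial prohibitin, 398 kb after Tac4, was lower from 6 h on, with differences of -0.42 (6 h), -0.68 (12 h), -1.35 (18 h) and -1.74 (24 h), and with the reservation that the annotated gene Gm26830 lies within its span. At 24 h 5 of the 12 were called higher and 3 lower, against 62.9% of all genes called in either direction.

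**Figure D5:**
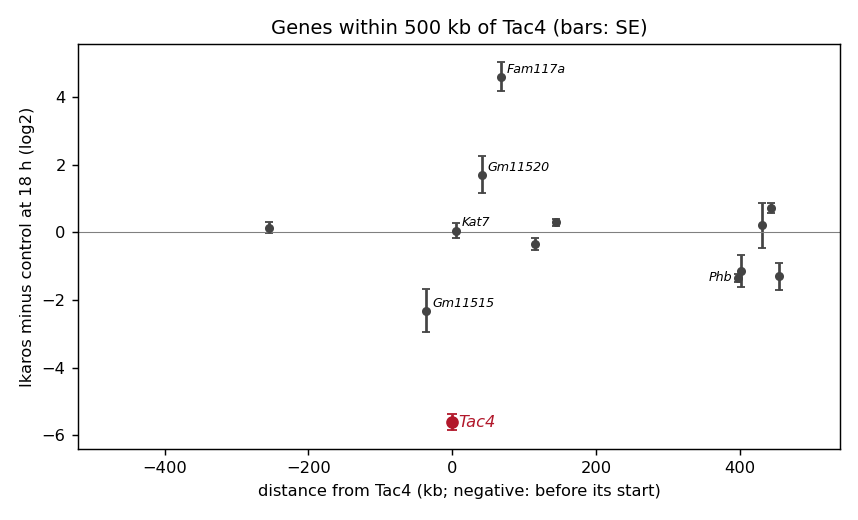
Ikaros minus control difference at 18 h (log2, bars are SE) against distance from Tac4 (kb, negative before its start) for Tac4 (red) and the 12 genes read within 500 kb. Tac4 stands at -5.62, the nearest gene read, Kat7, at 0.05 and Fam117a at 4.60.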

How the data were processed

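Per the methods of the study, the authors trimmed the reads, mapped them to mm10 with TopHat2 and kept uniquely mapped reads, counted them per gene with HTSeq (the submitters' processing notes name the same tools, without versions), corrected for GC content and gene length with cqn and adjusted for the library preparation batch with ComBat. The deposited table holds values of 12762 genes in 36 libraries, taken as log2, the scale that cqn returns (the table names no base), shifted by the authors so that the lowest value is 1. It holds no counts, so depth is unknown and precision rests on 3 libraries per group, and since batches were adjusted before deposition, standard errors may be too small. The strand setting of the counting is not given in the sources used here. All columns of the table were used.

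The 12 groups were fitted together with limma 3.58.1 in R 4.3.3, without further filter or normalization, with Benjamini-Hochberg adjustment over all genes of each comparison, and the fit was tested on simulated data. Tables were joined with Python 3.11.15, numpy 2.4.6 and pandas 2.3.3. The labels give the control and Ikaros cultures of a batch one batch number, which pairs them: deviations from the group means in 18 such pairs correlated at -0.062 to 0.507 across genes (median 0.127, 12 above 0.1). Alternatives were the replicate block, a filter at the 25th percentile of mean expression (9571 genes kept), quantile normalization, moderation with a trend, only the groups compared, and each replicate left out. Tac4 and all gene lists were chosen with earlier results of these data known. Named genes are Tac4, members of the pathway lists past the threshold, the 10 most and 5 least like genes, and the genes within 500 kb. Gene models are from GENCODE M21 and promoters from RefSeq, both on GRCm38, the build that mm10 names.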

Additional observations from a re-analysis of the deposited data

Results flagged for a closer look

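The change of Tac4 over time differed between Ikaros and control cells, by a test of the difference itself in limma. Relative to 0 h the Ikaros minus control difference changed by -2.07 at 6 h, by -4.36 at 12 h and by -5.52 at 18 h, and Tac4 was lower in Ikaros cells in 3 of 3 batches at each of these times.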

How the results depend on the processing

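Over 8 alternatives for each of 17 tested Tac4 comparisons, 130 of 136 values kept their direction and their side of the threshold, those of Ikaros minus control at 0, 2, 6, 12 and 18 h among them. The 4 comparisons with 24 h have no test, and 31 of their 32 values kept their direction and moved by less than the spread between replicates. With a replicate block for the culture batch (a paired fit) no Tac4 call changed, the 6 h difference staying at -2.17 (limma adjusted p = 2.29e-09). The block moved the counts of list genes called at 2 h from 1 to 2 for the propeptide enzymes, from 3 to 4 for the peptidases, from 8 to 10 for the Gq pathway and from 9 to 10 for the pre-B stage, and at 24 h from 12 to 13 for the Gq pathway. For the fit with the block, the share of all genes called is not given here. Leaving out 1 replicate moved the 6 h difference between -2.35 and -1.98, the 12 h difference between -4.63 and -4.29 and the 18 h difference between -5.83 and -5.46.

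The change from 0 to 2 h, near 0, reversed with quantile normalization (-0.0076) and ranged from -0.113 to 0.130 with 1 replicate left out. With only the groups compared, the limma adjusted p was 0.0554 for Ikaros 6 h minus 2 h (-1.82) and 0.0743 for Ikaros 18 h minus 12 h (-0.98), where fewer libraries estimate the spread. With 1 replicate left out, Ikaros 18 h minus 12 h ranged from -1.10 to -0.84, the last without replicate 1, and Ikaros 24 h minus 18 h from -0.31 to 0.012, the last without replicate 3. The counts of list genes called at 2 h ranged with 1 replicate left out from 0 to 4 for the peptidases (3 with all), from 3 to 9 for the Gq pathway (8 with all) and from 3 to 6 for the pre-B stage (9 with all), lowest without replicate 2 in each, and for the Gq pathway without replicate 1 as well. These counts stand without the share of all genes called in the same fits.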
